A study of Mus musculus with 8 samples.

Results

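Wnt ligands were examined in MAM326 cells, a mouse mammary cancer line, sorted by flow cytometry according to whether they carried GFP. The members were the 10 Wnt genes Wnt4, Wnt5a, Wnt5b, Wnt6, Wnt7a, Wnt7b, Wnt9a, Wnt10a, Wnt10b and Wnt11, taken as every non-control probe that the array design assigns to one of these names. They were carried by 11 of 55681 probes and gave 10 of 19709 genes and transcripts (features) tested. All cells of both groups were grown in DMEM with 10% serum and sorted 2 days after seeding, and the groups differed by GFP alone in their labels. Each group had 4 arrays, from 4 independent experiments at different passages. The labels do not tie arrays to experiments, and both groups come from 1 cell line. The sources used here do not state the promoter of the GFP reporter.

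Wnt proteins are secreted, lipid-carrying glycoproteins. Porcn, an enzyme of the endoplasmic reticulum, attaches the lipid, and Wls carries the ligand to the cell surface, where it binds Frizzled receptors together with Lrp5, Lrp6, Ror2 or Ryk. With Lrp5 or Lrp6 the signal stabilises beta-catenin (Ctnnb1), which activates target genes through Tcf and Lef proteins, while other receptor pairs signal without beta-catenin. In the mammary gland, Wnt4 is a paracrine signal made by luminal cells in response to progesterone, and Wnt1 and Wnt10b are genes activated by mouse mammary tumour virus insertion.

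Of the 10 ligands, Wnt9a and Wnt4 rose in GFP-positive cells and none fell. Wnt9a was 3.99-fold higher (95% confidence interval 2.99 to 5.33) and Wnt4 was 2.02-fold higher (1.51 to 2.72). The other 8 ligands did not pass the test, with differences from -0.73 to 1.26 on the log2 scale, and in 7 of these the difference had opposite signs in the 2 rows of the slide. A ligand was called when its adjusted p, from a limma fit of GFP-positive against GFP-negative over all features with Benjamini-Hochberg adjustment, was below 0.05. Over all features this rule called 2.56%. By that rule 2 of 10 ligands were called higher, where 1.82% of all features were, and 0 of 10 were called lower, where 0.741% of all features were. The ligands were chosen with earlier results of these data known, so shares of all features, here and below, are given as description only. At an unadjusted p below 0.05 the counts were again 2 higher and 0 lower, against 7.83% and 15.1% of all features (23.0% in either direction). That count of ligands was between 2 and 5 under the other settings, with 5 when the replicate number was a block and 4 with array weights, without GFP-negative replicate 1 or without GFP-positive replicate 4. The median difference of the 10 ligands was 0.30, that of all features was -0.06, and 7 ligands had a positive difference, where 39.3% of all features did. All 11 probes were well above background on all 8 arrays. That holds for the chosen members only, as 8 of 9 other Wnt ligand genes were too dim to be tested. Levels below are log2 intensities relative to each array's 75th percentile, so a probe at 0 is as bright as that percentile. Levels are not compared between ligands. Probe levels are compared only to pick the brightest probe of a gene and in the marker sums. Those sums add linear levels of different probes, so the brightest weigh most.

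**Figure D1:**
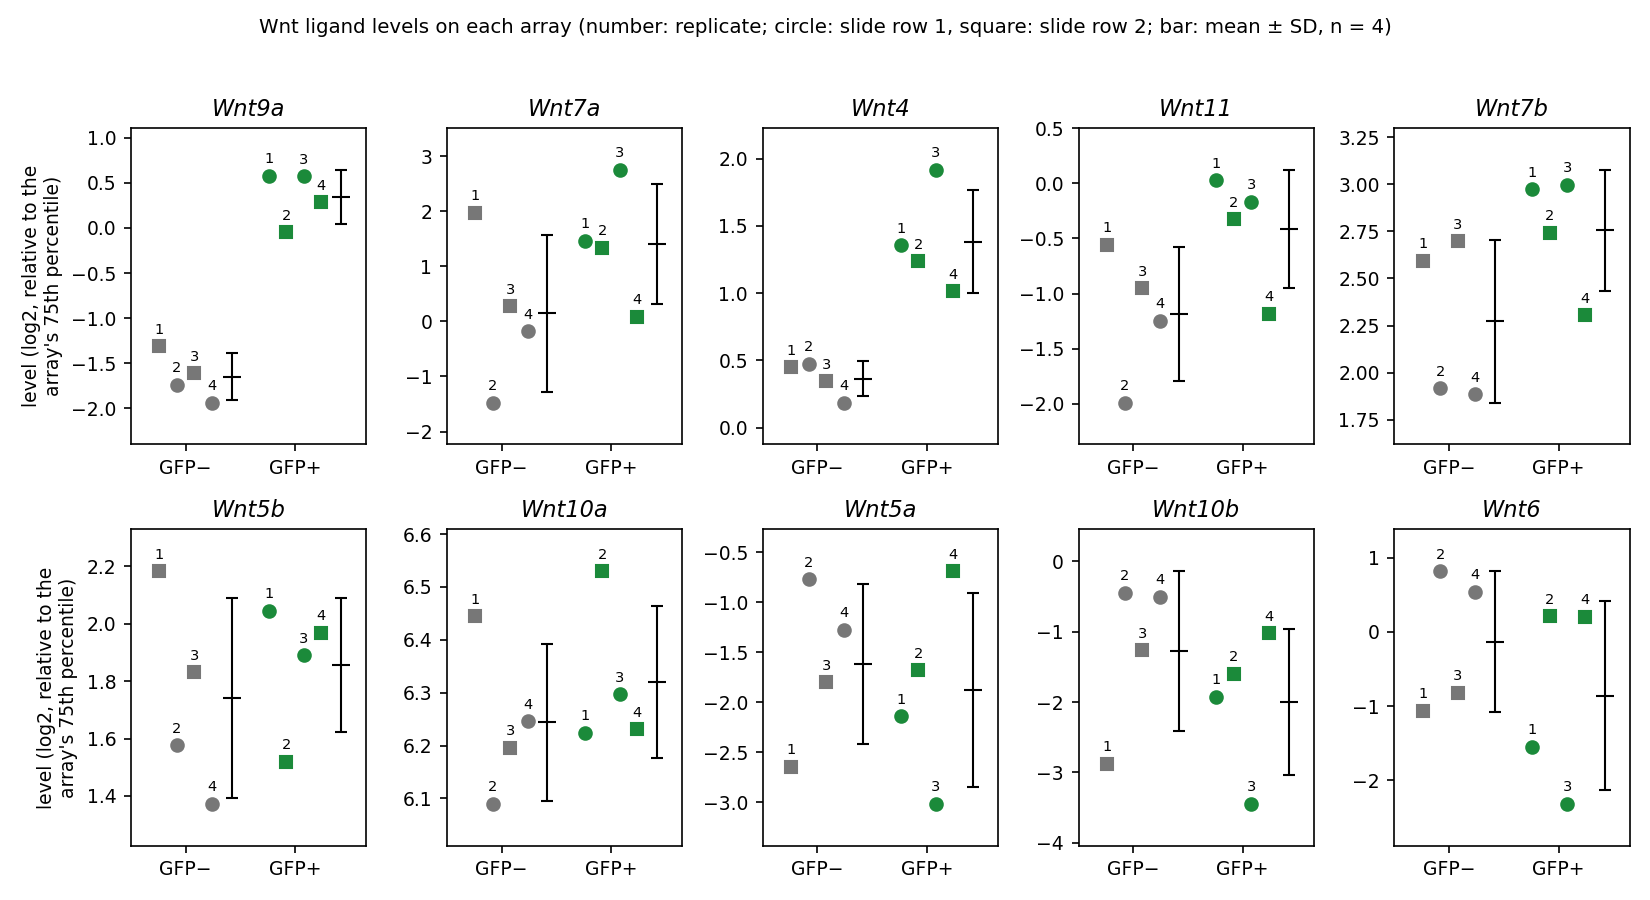
Log2 level of each of the 10 Wnt ligands on each of 8 arrays, GFP-negative and GFP-positive, relative to the array's 75th percentile. Numbers are replicates, circles are arrays of slide row 1 and squares of row 2, and bars give the mean and SD of 4 arrays; the groups lie apart for Wnt9a and Wnt4 and overlap for the others.

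The 8 arrays lay on 1 slide in 2 rows. Row 1 held GFP-positive replicates 1 and 3 and GFP-negative replicates 2 and 4, and row 2 held the rest, so each row gives a value from 2 arrays against 2. A row therefore sets replicates 1 and 3 of one group against replicates 2 and 4 of the other, and a shift between these replicates that both groups share enters the 2 rows with opposite signs. No spot was saturated, and 45.1% to 57.4% of probes were well above background per array. Epithelial keratins were present, with Krt5, Krt14, Krt8 and Krt18 well above background on all 8 arrays.

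Wnt9a, a ligand known from joint formation and blood stem cell development, had groups that lay well apart. Its level was 0.58, -0.05, 0.57 and 0.28 on GFP-positive replicates 1 to 4, and -1.31, -1.74, -1.61 and -1.94 on GFP-negative replicates 1 to 4. Every GFP-positive array was above every GFP-negative array. The groups of 5.07% of all features lay apart in that direction and those of 11.6% in the other (16.7% in all), against 2 and 0 of the 10 ligands. The mean was 0.35 ± 0.30 (SD, n = 4) with GFP and -1.65 ± 0.26 (SD, n = 4) without. The difference was 2.00 ± 0.18 (SE; 95% interval 1.58 to 2.41), with a limma adjusted p of 0.00163. It was 2.41 within slide row 1 and 1.58 within row 2. Under each of 20 other settings, 8 of which left out 1 array, Wnt9a stayed past the threshold, with differences of 1.60 to 2.13.

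Wnt4 was read by 2 probes, and the brighter represents the gene. Its level was 1.36, 1.24, 1.92 and 1.02 on GFP-positive replicates 1 to 4, and 0.45, 0.47, 0.35 and 0.19 on GFP-negative replicates 1 to 4. The groups did not overlap, and the GFP-positive arrays were spread more widely. The means were 1.38 ± 0.38 (SD, n = 4) and 0.36 ± 0.13 (SD, n = 4), and the difference was 1.02 ± 0.18 (SE; 95% interval 0.59 to 1.44; limma adjusted p = 0.0346). Within slide rows 1 and 2 it was 1.31 and 0.73. Wnt4 was past the threshold in 11 of 20 other settings, with differences of 0.84 to 1.14 and adjusted p of 0.0113 to 0.126. The limma adjusted p rose above 0.05 without GFP-negative replicate 1 (0.0660), 2 (0.0782), 3 (0.0846) or 4 (0.108) and without GFP-positive replicate 1 (0.115) or 2 (0.0533). It was also above 0.05 with the slide row as a block (0.0522), with the replicate number as a block (0.0804) and with no filter on dim probes (0.126).

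The second Wnt4 probe gave a like difference that did not pass. Its level was 0.10, 0.17, 0.69 and -0.05 on GFP-positive replicates 1 to 4, and -0.34, -0.60, -0.50 and -0.76 on GFP-negative replicates 1 to 4. These groups did not overlap either, and GFP-positive replicate 3 was the highest array with both probes. The difference was 0.78 ± 0.17 (SE), with an adjusted p of 0.0612 in a limma fit over all 27589 kept probes. The probes read different parts of the transcript, which is why their sequences are shown with that of Wnt9a. The second probe starts at base 605 of the RefSeq transcript, and its 60 bases span 569 bases of the genome (chr4:136851690-136852258, mm9), so it crosses an intron. The brighter probe starts at base 3748 (chr4:136855342-136855401), and the Wnt9a probe at base 3216 of its transcript (chr11:59146953-59147012). The second Wnt4 probe is given whole and the other probes by their first 30 bases, as the array files list them:
Wnt4, second probe: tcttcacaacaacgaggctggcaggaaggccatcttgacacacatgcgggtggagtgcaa
Wnt4, brighter probe: tatgaggctccttggcattgtgacatcccc
Wnt9a probe: cctgagtgactgcagagaatgtatttattt

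The promoter windows of the 2 called ligands are shown because these genes differed between the groups. Each window is the 250 bases before the RefSeq start on GRCm38.p6, plus strand, chr4:137277385-137277634 for Wnt4 and chr11:59306680-59306929 for Wnt9a. Capitals mark matches to the GC box GGGCGG on either strand and, in Wnt9a, to the E-box CACGTG:
Wnt4 promoter: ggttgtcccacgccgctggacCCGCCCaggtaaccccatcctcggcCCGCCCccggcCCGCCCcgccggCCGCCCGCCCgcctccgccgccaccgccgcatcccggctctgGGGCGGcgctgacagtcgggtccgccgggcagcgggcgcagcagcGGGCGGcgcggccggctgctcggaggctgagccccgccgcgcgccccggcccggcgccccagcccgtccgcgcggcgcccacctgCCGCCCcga
Wnt9a promoter: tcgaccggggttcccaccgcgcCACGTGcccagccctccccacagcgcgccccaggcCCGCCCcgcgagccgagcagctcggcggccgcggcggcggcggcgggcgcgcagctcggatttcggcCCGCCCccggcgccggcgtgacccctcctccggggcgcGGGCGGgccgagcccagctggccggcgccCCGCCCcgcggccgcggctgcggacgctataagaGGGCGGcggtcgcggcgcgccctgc
Wnt4 held 8 GC box matches, some of which overlap, and Wnt9a held 5 and 1 E-box. G and C made up 85.2% and 84.4% of these windows. At least 1 GC box stood in 32.7% and an E-box in 6.02% of all 32851 windows of this length. None of CCAAT (in 33.8% of windows), TATAAA (12.4%), the Tcf/Lef core CTTTGA (13.8%) or the AP-1 motif TGANTCA (6.75%), each searched on both strands, was found in either. Windows were at hand for 7 of the 10 ligands. The Tcf/Lef core was found in 1 of 3 windows of Wnt5b and 1 of 2 of Wnt11. GC boxes were not particular to the called ligands, with 6 matches in Wnt6, 6 in Wnt7a and 0 in Wnt10b. The windows of Wnt11 held 4 and 0, and those of Wnt5b held 2, 0 and 1. These are letter matches only.

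Wnt7a, a patterning ligand of the limb and the female reproductive tract, varied most among the ligands, over 4.22 log2 units across the 8 arrays. Its level was 1.47, 1.34, 2.75 and 0.08 on GFP-positive replicates 1 to 4, and 1.97, -1.47, 0.28 and -0.18 on GFP-negative replicates 1 to 4. GFP-negative replicate 1 was above 3 of the 4 GFP-positive arrays, so the groups overlapped. The difference was 1.26 ± 0.78 (SE; 95% interval -0.54 to 3.06; limma adjusted p = 0.370), and within slide rows 1 and 2 it was 2.93 and -0.41. The probe lies at chr6:91314653-91314712 (mm9).

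Wnt7b, a ligand of lung and vessel development, gave 2.97, 2.74, 3.00 and 2.31 on GFP-positive replicates 1 to 4, and 2.59, 1.92, 2.70 and 1.89 on GFP-negative replicates 1 to 4. GFP-negative replicates 1 and 3 reached into the GFP-positive range. The difference was 0.48 ± 0.24 (SE; 95% interval -0.07 to 1.04; limma adjusted p = 0.271), 1.09 in slide row 1 and -0.12 in row 2 (probe at chr15:85366896-85366955, mm9).

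Wnt11, known from kidney duct branching and cell movement, gave 0.03, -0.33, -0.17 and -1.18 on GFP-positive replicates 1 to 4. It gave -0.56, -1.99, -0.95 and -1.25 on GFP-negative replicates 1 to 4. GFP-positive replicate 4 lay among the GFP-negative arrays, and the other GFP-positive arrays were above all of them. The difference was 0.77 ± 0.35 (SE; 95% interval -0.04 to 1.59; limma adjusted p = 0.237), 1.55 in slide row 1 and -0.0013 in row 2 (probe at chr7:106001985-106002045, mm9).

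Wnt5a and Wnt5b are best known for signalling without beta-catenin, Wnt5a through Ror2. Wnt5a gave -2.14, -1.68, -3.02 and -0.69 on GFP-positive replicates 1 to 4, and -2.64, -0.77, -1.80 and -1.28 on GFP-negative replicates 1 to 4. The groups overlapped widely, and in both of them replicates 1 and 3 were below replicates 2 and 4. The difference was -0.26 ± 0.55 (SE; 95% interval -1.52 to 1.00; limma adjusted p = 0.816), -1.56 in slide row 1 and 1.04 in row 2 (probe at chr14:29336664-29336723, mm9). Wnt5b gave 2.04, 1.52, 1.89 and 1.97 on GFP-positive replicates 1 to 4, and 2.18, 1.58, 1.83 and 1.37 on GFP-negative replicates 1 to 4. Its highest and its lowest array were both GFP-negative. The difference was 0.11 ± 0.19 (SE; 95% interval -0.32 to 0.55; limma adjusted p = 0.761), 0.49 in slide row 1 and -0.26 in row 2 (probe at chr6:119382550-119382609, mm9). The sign of Wnt5a and of Wnt5b each turned when single arrays were left out.

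Wnt6, Wnt10a and Wnt10b, ligands known from skin, tooth and fat cell development, include the steadiest and some of the most variable members. Wnt10a gave 6.22, 6.53, 6.30 and 6.23 on GFP-positive replicates 1 to 4, and 6.44, 6.09, 6.20 and 6.25 on GFP-negative replicates 1 to 4. All 8 arrays lay within 0.44 log2 units, the smallest range among the members. The difference was 0.08 ± 0.11 (SE; limma adjusted p = 0.709), with a 95% interval of -0.17 to 0.32, whose upper end is a 1.25-fold higher level (probe at chr1:74850633-74850692, mm9).

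Wnt6 is the direct neighbour of Wnt10a in the RefSeq gene order, and it ranged over 3.14 log2 units. It gave -1.54, 0.21, -2.32 and 0.20 on GFP-positive replicates 1 to 4, and -1.06, 0.82, -0.82 and 0.54 on GFP-negative replicates 1 to 4. In both groups replicates 1 and 3 were low and replicates 2 and 4 high. The difference was -0.73 ± 0.69 (SE; 95% interval -2.33 to 0.86; limma adjusted p = 0.567), -2.61 in slide row 1 and 1.15 in row 2 (probe at chr1:74831461-74831520, mm9). Wnt10b gave -1.92, -1.60, -3.44 and -1.02 on GFP-positive replicates 1 to 4, and -2.88, -0.45, -1.27 and -0.50 on GFP-negative replicates 1 to 4. The same replicates were low in both groups as for Wnt6. The difference was -0.72 ± 0.67 (SE; 95% interval -2.26 to 0.82; limma adjusted p = 0.558), -2.21 in slide row 1 and 0.76 in row 2 (probe at chr15:98602209-98602268, mm9).

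**Figure D2:**
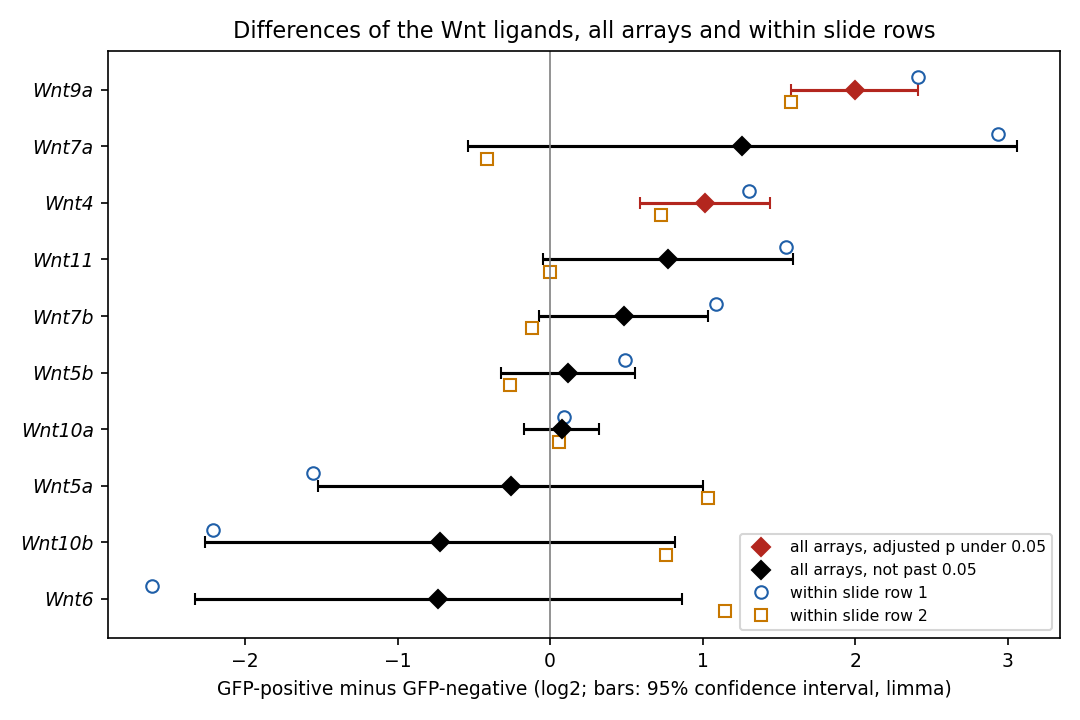
GFP-positive minus GFP-negative difference (log2) of each Wnt ligand, as diamonds with 95% confidence intervals, red where the limma adjusted p was below 0.05, with the value within slide row 1 (circle) and row 2 (square). Wnt9a, Wnt4 and Wnt10a were higher in both rows; the other 7 had opposite signs.

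Opposite signs in the 2 rows were also found in 46.1% of all features, and a positive sign in both rows in 18.5%, against 7 and 3 of the 10 ligands. The mean of replicates 2 and 4 minus that of replicates 1 and 3 was 2.14 for Wnt6, 1.39 for Wnt5a and 1.37 for Wnt10b in GFP-positive cells. In GFP-negative cells it was 1.62, 1.20 and 1.60, so these 3 ligands followed the replicate numbers in both groups, whose even replicates lie in different rows. Wnt7a went the other way, with -1.40 in the positive and -1.95 in the negative cells, as did Wnt7b (-0.46 and -0.74) and Wnt11 (-0.68 and -0.86). For Wnt9a the same values, -0.46 and -0.37, were small beside its difference of 2.00 between the groups. With arrays compared within replicates 1 and 3 and within replicates 2 and 4, a split chosen after the values were seen and given with no test, Wnt9a differed by 2.04 and 1.95 and Wnt4 by 1.24 and 0.80. Wnt6 was lower with GFP in both sets (-0.99 and -0.47), and Wnt11 (0.68 and 0.86), Wnt7b (0.34 and 0.62) and Wnt7a (0.98 and 1.54) were higher. Wnt10b (-0.61 and -0.84) and Wnt5a (-0.36 and -0.16) were also lower in both sets. For Wnt6, Wnt11, Wnt7b, Wnt7a, Wnt10b and Wnt5a the sign was the same in both replicate sets and opposite in the 2 rows. The signs of Wnt5b (-0.04 and 0.27) and Wnt10a (-0.06 and 0.21) turned between the sets. The share of all features that keep their sign in both sets was not computed.

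**Figure D3:**
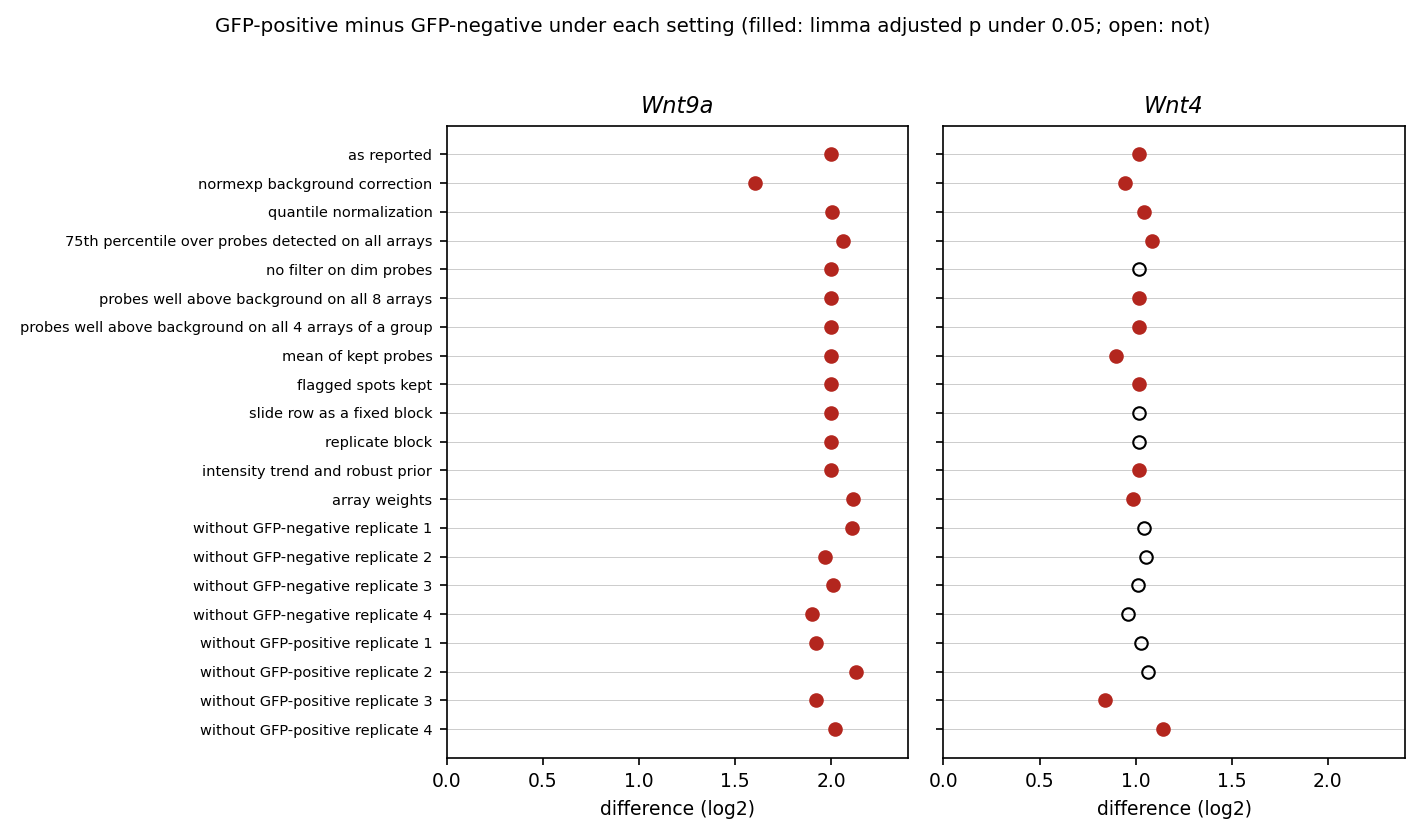
Log2 difference of Wnt9a and Wnt4 as reported and under 20 other settings, with filled points where the limma adjusted p was below 0.05. Wnt9a was past the threshold under all 20, Wnt4 under 11.

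Markers of other cells were read beside these values. The summed level of 7 tested of 10 fibroblast and stromal markers ran from 1.93 to 5.92 on GFP-positive and from 3.83 to 7.42 on GFP-negative arrays. It was lowest on GFP-positive replicate 3, where Wnt5a, Wnt6 and Wnt10b were also lowest. It was next lowest on GFP-negative replicate 1, the lowest GFP-negative array for these 3 ligands. Of these 7 markers 6 had a negative difference, with a median of -1.75, and none was called by limma (0 higher and 1 lower at an unadjusted p below 0.05). Col1a1, a fibrillar collagen, differed by -4.65 in slide row 1 and 0.40 in row 2. Dcn, a matrix proteoglycan, was lower in both (-1.86 and -1.63; limma adjusted p = 0.104). Lum, Dpt and Fap were not well above background on any array. The part of the stromal markers in these ligands' values was not tested. Of 8 endothelial markers 3 were tested, and their summed level ran from 2.68 to 3.00 on GFP-positive and from 2.68 to 3.02 on GFP-negative arrays. This sum is nearly the level of Kdr alone, whose means were 2.82 and 2.83. Cdh5, Tek, Emcn, Cldn5 and Tie1 were not well above background on any array. The ranges for basal epithelial markers were 6.55 to 7.40 and 6.26 to 7.04, and for luminal markers 8.97 to 9.49 and 8.70 to 9.36. All 9 tested basal markers had a positive difference (median 0.15), where 39.3% of all features did. The largest were those of the keratins Krt5 with 1.18 (limma adjusted p = 0.0909) and Krt14 with 0.67 (0.157), and the smallest was 0.0012 (Mylk). Of 12 luminal markers 8 were tested, and 6 of these had a positive difference (median 0.30). Pgr and Kit were not well above background on any array, Elf5 on at most 1 and Prlr on at most 2. Limma called none of either list, and at an unadjusted p below 0.05 there were 2 basal markers higher and 1 luminal marker lower. Of 6 tested of 10 macrophage and leukocyte markers, whose summed level ran from 4.30 to 4.79 and from 4.10 to 4.52, limma called Cd68 and Cd14 higher, by 1.00 and 0.56. Csf1r (0.29), Itgam (0.03), Mrc1 (-0.01) and Cd3e (-0.08) were tested and not called, and each was well above background on all 8 arrays. Ptprc, the common leukocyte antigen, was well above background on at most 1 array, and Lyz2 was not well above background on any array. The part of these shifts in the Wnt9a and Wnt4 values was not tested, and a change in cell makeup cannot be told apart from a change in RNA per cell.

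Of 9 other Wnt ligand genes on the array, Wnt1 alone was tested. It differed by -0.07 ± 0.08 (SE; limma adjusted p = 0.610). One of its probes was well above background on all 8 arrays and the other on 0. Wnt2, Wnt9b and Wnt16 were well above background on 1 array each, and Wnt2b, Wnt3, Wnt3a, Wnt8a and Wnt8b on none.

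Of 124 other pathway genes, 91 were tested, of which limma called 1 higher and 0 lower, where 1.82% and 0.741% of all features were called. At an unadjusted p below 0.05 there were 11 higher and 11 lower of the 91, where 7.83% and 15.1% of all features were. The median difference was -0.05, against -0.06 for all features, and the share called was near that of all features. The called gene was Ascl2, a transcription factor and Wnt target of intestinal stem cells. Its level was -3.01, -2.18, -1.79 and -2.04 on GFP-positive replicates 1 to 4, and -4.28, -4.53, -6.24 and -4.33 on GFP-negative replicates 1 to 4. All GFP-positive arrays were above all GFP-negative arrays, but the probe was well above background on only 3 of the 4 GFP-negative arrays. The difference was 2.59 ± 0.47 (SE; limma adjusted p = 0.0347). It passed in 9 of 19 other settings and measured 0.98 with normexp background correction. It was lost with the slide row as a block (adjusted p = 0.0645), the replicate number as a block (0.115) or no filter on dim probes (0.114). The limma adjusted p rose above 0.05 without GFP-negative replicate 1, 2 or 4 or without any 1 of the GFP-positive arrays (0.0520 to 0.0914).

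**Figure D4:**
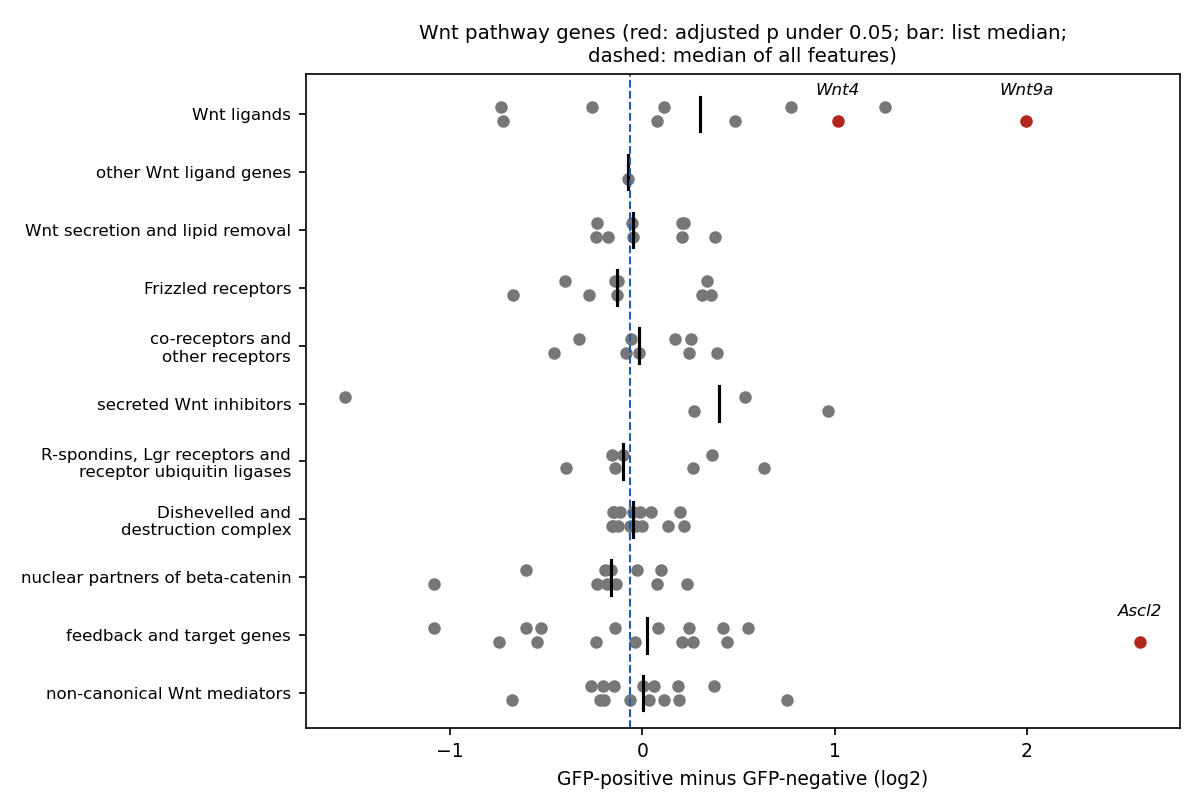
Log2 difference of every tested gene of the Wnt ligand list and all other pathway lists, red where called by limma. The other Wnt ligand genes form 1 of these lists. Each gene has 1 point per list, so Notum, Rnf43, Znrf3, Tcf7 and Lef1 are drawn more than once. Black bars are list medians and the dashed line is the median of all features, -0.06; Wnt9a, Wnt4 and Ascl2 are the called genes.

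Among genes of Wnt secretion and lipid removal, 0 of 9 were called by limma. At an unadjusted p below 0.05, 3 were higher, Gpc4, Gpc6 and Porcn. Porcn differed by 0.21 ± 0.08 (SE; adjusted p = 0.181). Wls differed by -0.23 ± 0.34 (SE; adjusted p = 0.720), with -1.06 in slide row 1 and 0.59 in row 2. Among receptors, 0 of 9 tested Frizzled genes and 0 of 9 co-receptors were called by limma. At an unadjusted p below 0.05, 1 Frizzled gene was higher and 2 lower, and 2 co-receptors were higher and 1 lower. Fzd7 differed by 0.31 ± 0.20 (SE; limma adjusted p = 0.403), Lrp6 by -0.02 (0.944) and Ror2 by -0.46 ± 0.45 (SE; 0.585), the last with -1.66 and 0.74 in rows 1 and 2. With the mean of kept probes in place of the brightest, the Fzd7 difference was 0.05 (limma adjusted p = 0.874). The sign of Lrp6 turned under quantile normalisation and under a percentile over detected probes. Of 14 secreted inhibitors 4 were tested and 0 called by limma, with 1 of the 4 higher at an unadjusted p below 0.05. Of the R-spondin, Lgr and receptor ligase genes 7 were tested and 0 called, with 1 higher at an unadjusted p below 0.05.

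Inside the cell, 0 of 15 Dishevelled and destruction complex genes and 0 of 11 tested nuclear partners were called by limma. At an unadjusted p below 0.05 the first list had 0 higher and 1 lower, and the second 1 higher and 3 lower. The feedback and target list had 16 tested genes, of which Ascl2 was called. At an unadjusted p below 0.05 it had Ascl2 higher and 3 lower, Tcf7, Lef1 and Twist1. The non-canonical mediators had 15, of which 0 were called, with 1 higher and 3 lower at an unadjusted p below 0.05. Ctnnb1 differed by -0.06 (adjusted p = 0.715), and its sign turned under the same 2 scalings. Tcf7, a DNA-binding partner of beta-catenin, differed by -0.61 ± 0.13 (SE; adjusted p = 0.0509), with groups that did not overlap, and passed in 7 of 20 other settings. Lef1, a related factor, differed by -1.08 ± 0.46 (SE; adjusted p = 0.210), with -2.23 and 0.06 in rows 1 and 2. Znrf3, a ligase that removes Frizzled receptors, differed by -0.14 (adjusted p = 0.543). Axin2, a feedback target of beta-catenin, and Lgr5, an R-spondin receptor, were well above background on at most 1 array and were not tested.

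The features whose levels most resembled a ligand's over the 8 arrays are given as a description, by Pearson's r. For Wnt9a these were Rab17, Matn4 and Trp53inp1, with r of 0.998, 0.998 and 0.992. They differed by 2.38, 2.44 and 2.39, so that the 2 groups themselves carry much of this likeness. For Wnt4 they were Galnt2 (0.992), Slc31a2 (0.985) and Dhcr7 (0.984). Wls (0.985), with Slfn8 (0.990) and Dysf (0.990), was among the 3 features most like Wnt5a. Bmp4 (0.991), with Irx3 (0.993) and Ss18l2 (0.989), was among those most like Wnt6. Those of Wnt10b were Mcf2l (0.998), P4ha1 (0.990) and Mtmr11 (0.990), and those of Wnt7a were Fam83g (0.996), Map3k9 (0.996) and Fam83h (0.994). Wnt7b had Tcte1 (0.990), Krt42 (0.988) and Marveld2 (0.987), and Wnt11 had Dynap (0.980), Dyrk3 (0.980) and Sec22a (0.979). The nearest features to the steadier Wnt5b and Wnt10a reached only 0.950 (Iqck) and 0.941 (Olfr122). All these values rest on the same 8 arrays and share their slide rows.

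The genes next to each ligand in the RefSeq order were not called where they were tested. Zbtb40 and Cdc42, on either side of Wnt4, differed by -0.15 and -0.14. The neighbours of Wnt9a, Wnt3a and Prss38, were not tested. Fbln2, beside Wnt7a, differed by 0.57 (limma adjusted p = 0.209), with 1.10 and 0.05 in rows 1 and 2.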

How the data were processed

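The deposited intensity values were the processed signal of Agilent Feature Extraction 10.7.3.1 (protocol GE1_107_Sep09, probe positions on mm9), per the file headers. That program had already corrected them for background. Later steps of the authors: not given in the sources used here.

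Control spots and spots marked as outliers (106 to 186 per array) were left out. The log2 processed signal was set relative to each array's 75th percentile, and spots of a probe were averaged. A probe was kept if 4 or more of the 8 arrays had it well above background (27589 probes), and the brightest kept probe stood for its gene. Of all probes, 49.4% matched a RefSeq accession (GRCm38.p6), and others kept the file's name. GFP-positive against GFP-negative was fitted with limma 3.58.1 in R 4.3.3 (lmFit and eBayes, two-sided, no block, Benjamini-Hochberg adjustment over all features). Of these steps only the limma fit was tested on simulated data. The simulated noise was independent between arrays, with no pattern by slide row or replicate number.

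Errors are SEs of the fit or SDs over 4 arrays. Depth is not defined for arrays, and their number limits the precision. P-values set the group difference against the spread within groups of these arrays, in a fit that treats the arrays as independent. Likeness was Pearson's r with features that carry a gene symbol. Alternatives were other scalings, background corrections, filters, probe summaries, blocks, variance models and leaving out each array.

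Named were all 10 ligands, called pathway genes, 11 pathway genes whatever their result, and the 3 features most like each ligand. Other genes were chosen after their values were seen. The members and lists were chosen with earlier results of these data known. The probes' exons and the ligands' protein sequences were not analysed here.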

Additional observations from a re-analysis of the deposited data

Results flagged for a closer look

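Of 66 values tested in groups of 4 arrays, 2 had an array set apart from the other 3 by more than Dixon's 95% critical value. Chance alone flags about 1 in 20 groups. The Wnt9b probe gave -2.27 on GFP-positive replicate 2, where the nearest other GFP-positive array gave -6.78, and it was well above background on that array alone. Ascl2 gave -6.24 on GFP-negative replicate 3, where the nearest other GFP-negative array gave -4.53. Without that array the Ascl2 difference was 2.12, with a limma adjusted p of 0.0208.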

How the results depend on the processing

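Settings were changed singly, except that the intensity trend and the robust prior were changed together. The 505 called features became 786 with normexp background correction, 154 with no filter on dim probes, 278 with the slide row as a block, 1166 with an intensity trend and robust prior, 1823 with array weights, and 151 to 428 with 1 array left out. They split into 359 higher and 146 lower, against 348 and 79 with quantile normalisation, 424 and 71 with the percentile over detected probes, and 424 and 362 with normexp. More were lower than higher with trend and robust prior (537 higher, 629 lower) and with array weights (799 and 1024). The 2 called ligands, and likewise the 2 called ligand probes, became 1 with no filter and 1 with the slide row as a block, and 1 to 2 with 1 array left out. Wnt9a was the ligand that remained. The called ligand probes became 3 with normexp, with either stricter filter, with trend and robust prior and with array weights. The 1 other pathway gene became 2 with normexp, 2 with the filter on all 4 arrays of a group, 2 with the mean of probes, 3 with trend and robust prior and 5 with array weights. It became 0 in limma with no filter (14 at an unadjusted p below 0.05) and 0 with the slide row as a block (19), and 0 to 1 with 1 array left out. Without GFP-negative replicate 1 the called gene was Tcf7, lower (limma adjusted p = 0.0334), in place of Ascl2 (0.0520). It was Tcf7 too with the filter on all 8 arrays (limma adjusted p = 0.0405), where Ascl2 was not kept. Causes of these shifts were not tested.

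The difference of Ctnnb1 turned to 0.036 with quantile normalisation and 0.00098 with the percentile over detected probes. That of Lrp6 turned to 0.059 and 0.047 under these and to 0.0013 with array weights. With 1 array left out, Lrp6 ran from -0.094 to 0.056, Wnt5a from -0.66 to 0.12 and Wnt5b from -0.0077 to 0.26. The other ligands kept their sign under every setting run on all rows together, but not within slide row 2, where Wnt6, Wnt7a, Wnt7b, Wnt10b and Wnt11 turned.

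Arrays of one replicate number were not paired: their deviations from the group means correlated at -0.03, 0.07, 0.02 and 0.18, and no array matched its own number best. Arrays of replicate 1 and of replicate 3 matched each other best across the groups, as did those of 2 and 4. With the replicate number as a block, 215 features, 1 ligand, 1 ligand probe and 1 other pathway gene, Tcf7 in place of Ascl2, were called. Wnt4 had an adjusted p of 0.0804. Slide column and replicate number cannot be told apart.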
